A study of Mus musculus with 6 samples.

Results

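Chemokines are small secreted proteins that guide leukocytes along concentration gradients, and their receptors are G protein-coupled receptors on the responding cells. Ligands are grouped by the spacing of their first cysteines into CC, CXC, CX3C and XC families. In bone marrow the pair of Cxcl12 and Cxcr4 retains stem cells and immature leukocytes, whereas Ccr2 and Cxcr2 direct the exit of monocytes and neutrophils. Megakaryocytes carry chemokines of their own in their granules, with platelet factor 4 (Pf4) and pro-platelet basic protein (Ppbp) as the most familiar.

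The chemokine genes described here were chosen by name. They comprised every gene with a single symbol on the array that begins with Ccl, Cxcl, Ccr, Cxcr or Ackr and a digit, together with Cx3cl1, Cx3cr1 and Xcl1, and without 1 CC and 1 CXC receptor not analysed here. This gave 53 of 30063 named genes, of which 36 were ligands and 17 receptors. Each had 1 row on the array. Pf4 and Ppbp do not carry such symbols and were examined as neighbours.

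RNA came from megakaryocytes of female C57 mice, gated in bone marrow on side scatter and CD41, both high, and on DNA content of at least 8N. The AML group consisted of 3 arrays from mice with acute myeloid leukaemia induced by MLL-AF9, a fusion oncogene, and the control group of 3 arrays from healthy mice. The labels call the arrays of each group biological replicates, but give neither ages nor animal numbers, nor how the oncogene was introduced. The p-values therefore cover only the scatter among these arrays, of which a part may be technical. Values are log2 expression on a whole-transcript array, ± is the SD over n = 3 arrays, differences are AML minus control, and adjusted p-values are those of limma over all 30063 genes. The number of arrays limits the precision.

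The median difference over all genes was +0.11, so that a difference relative to all genes lies 0.11 below the value printed. On each array the 95th percentile of 1528 olfactory and vomeronasal receptor genes, a family of the nose, served as a floor for dim signal. It stood at 5.59, 5.78 and 6.21 on AML arrays 1, 2 and 3, against 5.58, 5.19 and 5.13 on the control arrays. A gene at or below the floor on every array of a group was taken as not shown to be above background there. The label of megakaryocytes was checked against 14 markers, all above the floor, of which 0 passed in either direction with limma (1 higher and 0 lower at an unadjusted p of 0.05), and their median level lay between 9.08 and 9.87 on AML arrays and between 8.96 and 9.42 on control arrays.

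Chemokine genes that moved stood lower in the sorted samples of AML mice. Which cells of these bulk samples the signal came from was not tested. Of the 53 genes, 19 fell and 0 rose at an adjusted p of 0.05. Over all genes, 6.25% were lower and 4.49% higher (1880 and 1350 genes, or 2712 and 505 after centring each array on its median). At an unadjusted limma p of 0.05 the counts were 21 lower and 3 higher of the 53, against 3546 lower and 6306 higher of all 30063 genes. Of 36 ligands 14 fell, and of 17 receptors 5. The 3 AML values lay below all 3 control values in 22 of the 53 genes, against 13.1% of all genes, and above them in 4, against 28.2% of all genes (41.3% in either direction). The median difference was -0.26 relative to all genes for the 53 chemokine genes, -0.23 for ligands and -0.28 for receptors.

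A cutoff for a gene's mean over all arrays, taken from the same receptor family, was 5.51. Of the 53 chemokine genes 27 had means at or below it, against 16815 of all 30063 genes. On all arrays 16 chemokine genes stood at or below the floor. Of the 19 lower genes, 11 were above the floor on every control array and on at least 1 AML array. Another 6 were above it on control arrays alone, so that a fold is given there only as a lower bound, where one could be had. The remaining 2, Ccl12 and Ccr1l1, stood at or below the floor everywhere. Among the 13248 genes whose mean lay above the cutoff, 15.2% were lower and 7.96% higher in the same test run on them alone. These shares leave out the 27 chemokine genes with means at or below it, and so are not the base for 19 of 53. The 34 chemokine genes that did not pass differed by between -0.94 and +0.39.

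**Figure D1:**
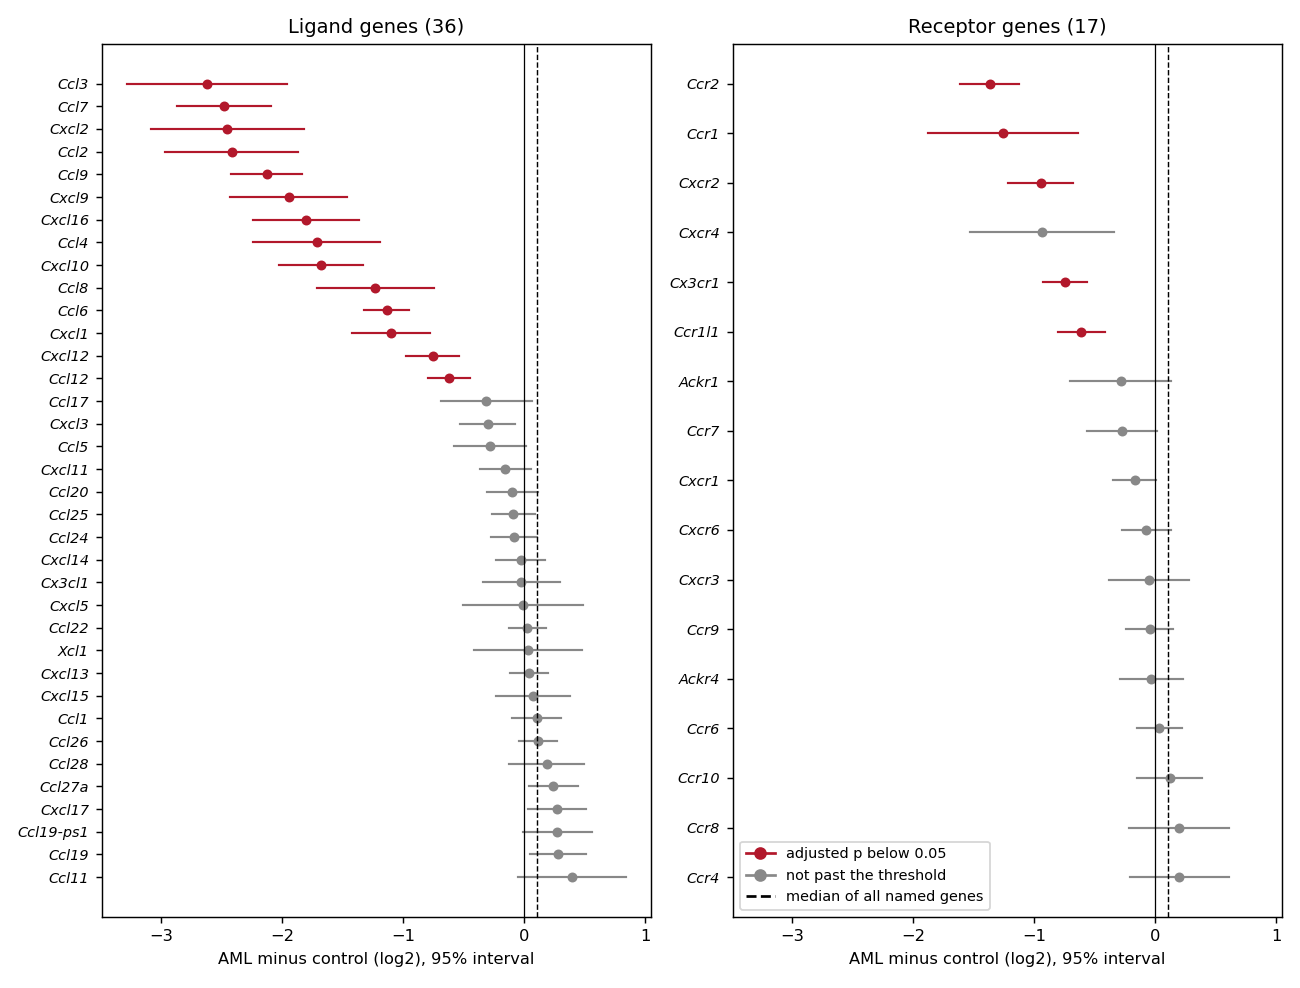
Difference between AML and control (log2, x axis) with its 95% interval for the 36 ligand genes and the 17 receptor genes. Red marks the 14 ligands and 5 receptors past an adjusted p of 0.05, all left of 0, grey the rest, and the dashed line the median of all named genes (+0.11).

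Of 10 CC ligand genes of inflammation on chromosome 11, 8 fell and 0 rose. Their median difference was -1.58 relative to all genes. Ccl3 encodes a macrophage inflammatory protein that acts on Ccr1. It measured 8.29, 7.96 and 7.10 on AML arrays 1, 2 and 3, against 10.28, 10.47 and 10.47 on control arrays. The AML arrays were all lower and more scattered, with array 3 lowest. The mean was 7.78 ± 0.62 in AML and 10.41 ± 0.11 in control, a 6.16-fold lower level (95% interval of the difference -3.28 to -1.96, adjusted p = 0.00265). Ccl4, its closest relative, measured 5.31, 5.41 and 4.53 in AML, against 6.80, 6.79 and 6.80 in control. It fell at least 1.92-fold, since the AML values did not exceed the floor (adjusted p = 0.00542).

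Ccl6 and Ccl9 are rodent chemokines of myeloid cells that act on Ccr1. Ccl6 measured 10.13, 10.09 and 10.08 on AML arrays, against 11.14, 11.21 and 11.35 on control arrays. Both groups were tight and did not overlap, and the level was 2.20-fold lower in AML (SE of the difference 0.08, adjusted p = 6.8e-04). Ccl9 measured 6.09, 5.90 and 6.07 in AML, against 7.95, 8.10 and 8.39 in control. This was 4.37-fold lower (adjusted p = 4.0e-04), with AML array 3 below the floor. Ccl5, which attracts T cells and is stored in platelet granules, lies beside Ccl9. It measured 6.66, 6.79 and 6.61 in AML, against 7.22, 6.92 and 6.77 in control. The groups overlapped (difference -0.29, 95% interval -0.58 to 0.01, adjusted p = 0.163).

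The monocyte attractants form a second run of genes on the same chromosome. Ccl2 encodes the principal ligand of Ccr2 and measured 6.96, 6.71 and 5.98 on AML arrays, against 8.96, 8.91 and 9.03 on control arrays. Control values were nearly equal and AML values spread over nearly 1 log2 unit, with array 3 below the floor. The level was 5.34-fold lower in AML (95% interval -2.96 to -1.87, adjusted p = 0.00181). Ccl7, another ligand of Ccr2, measured 5.36, 4.96 and 4.96 in AML, against 7.76, 7.27 and 7.70 in control. It fell at least 3.28-fold (adjusted p = 5.5e-04).

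Ccl8, which in mice acts on Ccr8, measured 5.42, 5.37 and 4.81 on AML arrays, against 6.60, 6.09 and 6.61 on control arrays. It fell at least 1.48-fold (adjusted p = 0.0143). Leaving out control array 3 ended the call (adjusted p = 0.0666), and over 15 alternatives its adjusted p ran from 0.00596 to 0.0666. Ccl12, a mouse ligand of Ccr2, stood at 3.40 ± 0.07 in AML and 4.03 ± 0.05 in control. The difference of -0.62 passed (adjusted p = 0.00398), but as both groups lay in the dim range no fold is given. Ccl11, the eosinophil attractant eotaxin, lies within the same run and stood at 5.85 ± 0.31 in AML and 5.45 ± 0.26 in control (adjusted p = 0.189).

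**Figure D2:**
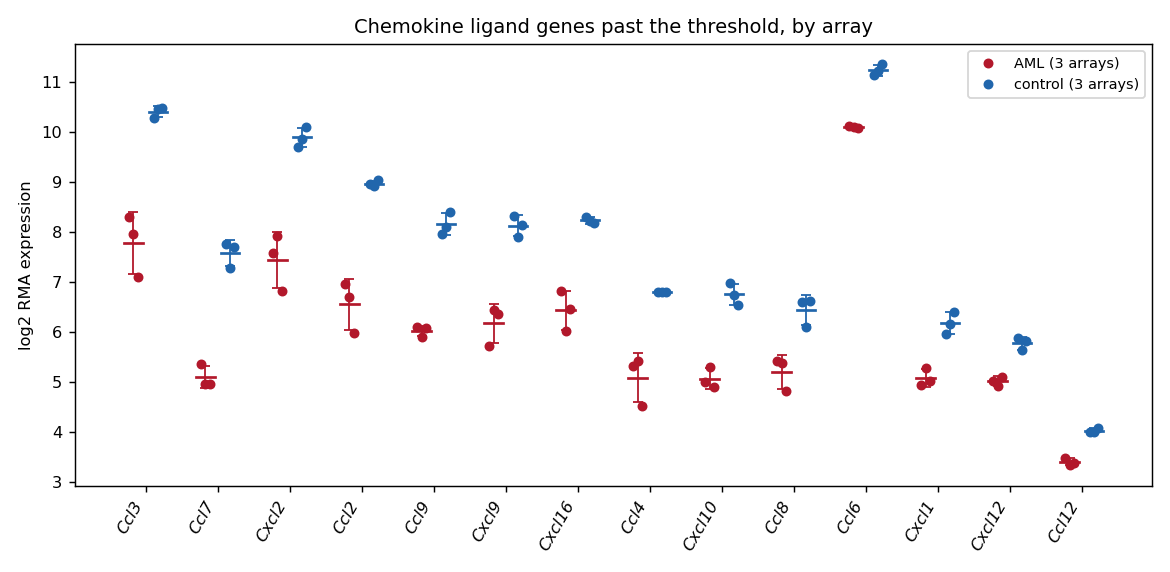
Log2 expression (y axis) of the 14 ligand genes past the threshold, AML left in red and control right in blue. Points are arrays, horizontal bars means and error bars SD (n = 3). In each gene the 3 AML points lie below the 3 control points, and Ccl3 has the widest AML spread (SD 0.62).

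Among CXC ligands that attract neutrophils, 2 of 5 genes fell and 0 rose. Cxcl2 measured 7.58, 7.91 and 6.81 on AML arrays, against 9.70, 9.86 and 10.10 on control arrays. AML array 3 was lowest, and the level was 5.48-fold lower in AML (95% interval -3.09 to -1.82, adjusted p = 0.00294). Cxcl1 measured 4.93, 5.28 and 5.02 in AML, against 5.97, 6.16 and 6.40 in control. The AML values did not exceed the floor, so that it fell at least 1.24-fold (adjusted p = 0.00495). Cxcl3 lies in the same run of genes and measured 7.46, 7.44 and 7.30 in AML, against 7.58, 7.68 and 7.85 in control. The groups did not overlap, yet the difference of -0.30 (95% interval -0.53 to -0.08) did not pass (adjusted p = 0.0839), except with array weights (adjusted p = 0.0446, range over 15 alternatives 0.0446 to 0.228). Cxcl5 stood at 6.11 ± 0.23 in AML and 6.12 ± 0.40 in control (adjusted p = 0.977), and Cxcl15, a lung chemokine of mice, was in the dim range.

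The promoters of Cxcl1, Cxcl2 and Cxcl3 are shown because these neighbouring genes carry the same letters before their starts while their differences ran from -2.45 to -0.30. The sequences are RefSeq's, build GRCm38.p6, and cover 120 bases before the annotated start on the plus strand. They lie at chr5:90891125-90891244 (Cxcl1), chr5:90903779-90903898 (Cxcl2) and chr5:90785981-90786100 (Cxcl3). Capitals mark a form of the NF-kappaB motif, GGGA and TTTCC with any 1 base between them, searched on both strands.
Cxcl1: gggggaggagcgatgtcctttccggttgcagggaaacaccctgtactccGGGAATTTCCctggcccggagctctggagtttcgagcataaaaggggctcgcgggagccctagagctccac
Cxcl2: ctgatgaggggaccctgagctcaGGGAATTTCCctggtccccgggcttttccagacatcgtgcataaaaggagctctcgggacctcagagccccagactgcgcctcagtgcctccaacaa
Cxcl3: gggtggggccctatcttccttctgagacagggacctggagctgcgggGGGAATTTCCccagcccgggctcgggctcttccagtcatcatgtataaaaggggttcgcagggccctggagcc
The match began 71, 97 and 73 bases before the start of Cxcl1, Cxcl2 and Cxcl3. It occurred in 117 of 32851 windows of 250 bases, or 0.356%, and in 3 of the 39 chemokine genes with a window. These 3 genes are close relatives, so that shared letters are not independent. A match is not evidence of binding. Other forms of the NF-kappaB motif were not searched, so that a window without a match is not shown to lack one.

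Interferon-induced CXC ligands, which attract T cells through Cxcr3, fell in 2 of 3 genes. Cxcl9 measured 5.72, 6.43 and 6.37 on AML arrays, against 8.32, 7.90 and 8.13 on control arrays. The level was 3.85-fold lower in AML, well outside the spread of either group (95% interval -2.43 to -1.46, adjusted p = 0.00244). Cxcl10 measured 5.0, 5.31 and 4.89 in AML, against 6.97, 6.74 and 6.54 in control, and fell at least 1.85-fold (adjusted p = 0.0014). Cxcl11 is annotated as a transcribed pseudogene in the reference strain. It stood in the dim range in both groups (difference -0.16, adjusted p = 0.251).

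The promoter of Cxcl10 is shown as the example of the interferon-induced group, since it holds 2 of the motifs searched. It is RefSeq's sequence of the 250 bases before the start, build GRCm38.p6, chr5:92348890-92349139, minus strand. The first run of capitals marks a form of the interferon-stimulated response element, GAAA and GAAA with any 2 bases between them. The second marks TGANTCA, a loose form of the AP-1 motif with any base in the middle, here G, which matches on both strands at once. The matches did not overlap. The NF-kappaB form searched had no match here, and other forms of it were not searched.
Cxcl10: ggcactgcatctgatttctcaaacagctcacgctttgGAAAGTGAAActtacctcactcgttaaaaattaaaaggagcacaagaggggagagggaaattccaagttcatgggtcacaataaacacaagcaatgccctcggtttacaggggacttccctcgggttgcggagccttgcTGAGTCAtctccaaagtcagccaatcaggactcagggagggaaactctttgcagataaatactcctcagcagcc
The interferon motif occurred in 2.98% of the 32851 windows and in 3 of the 39 chemokine genes, Ccl19, Cxcl10 and Cxcl14. TGANTCA occurred in 6.75% of windows and in Ccl9, Cxcl10, Ccl27a and Ccr4. Its middle base was A in Ccl9, G in Cxcl10 and Ccr4, and C in Ccl27a. Of these genes Ccl9 and Cxcl10 fell and the others did not pass.

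Cxcl16 is a membrane-bound ligand of Cxcr6 that also takes up oxidised lipoprotein. It measured 6.81, 6.03 and 6.45 on AML arrays, against 8.31, 8.22 and 8.17 on control arrays. The groups were far apart, and the level was 3.49-fold lower in AML (95% interval -2.24 to -1.36, adjusted p = 0.00232). Its receptor gene Cxcr6 was in the dim range in both groups (difference -0.07, adjusted p = 0.555).

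Of 12 ligands known mainly from homing, barrier tissues, allergy and T cell traffic, 1 fell and 0 rose. The gene that fell was Cxcl12, at 5.02, 4.92 and 5.11 on AML arrays, against 5.87, 5.63 and 5.82 on control arrays. Its difference was -0.76 (95% interval -0.98 to -0.54, adjusted p = 0.00453). The AML values did not exceed the floor, and the control mean lay below the AML floor, so that no fold is given. Stromal cells of the marrow are the main source of Cxcl12. Of 9 measured stromal markers 2 fell and 1 rose, and 5 had means at or below the cutoff of 5.51. The list medians were 5.02 to 5.07 in AML and 5.28 to 5.48 in control. Of 8 endothelial markers 5 fell (list medians 5.33 to 5.52 in AML and 5.81 to 6.29 in control). Their part in the result was not tested. The other 11 ligands differed by between -0.32 and +0.28, with a smallest adjusted p of 0.109.

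Calls differed among chromosomal neighbours. On chromosome 5 the genes stand in the order Cxcl5, Ppbp, Pf4, Cxcl3, Cxcl15, Cxcl1 and Cxcl2, and Cxcl1 and Cxcl2 were the ones that passed. Pf4 measured 11.93, 11.79 and 12.23 on AML arrays, against 12.22, 12.002 and 12.05 on control arrays (adjusted p = 0.546). Ppbp measured 12.17, 12.12 and 12.42 in AML, against 12.56, 12.21 and 12.35 in control (adjusted p = 0.424). Both platelet chemokines thus overlapped between groups (95% intervals of the differences -0.41 to 0.19 for Pf4 and -0.42 to 0.15 for Ppbp). On chromosome 11, 4 of 6 genes of the run around Ccl2 fell and 4 of 5 of the run around Ccl3. In the receptor run on chromosome 9, Ccr1, Ccr1l1 and Ccr2 fell while Ccr9 and Cxcr6 did not pass. A difference between neighbours was not tested.

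**Figure D3:**
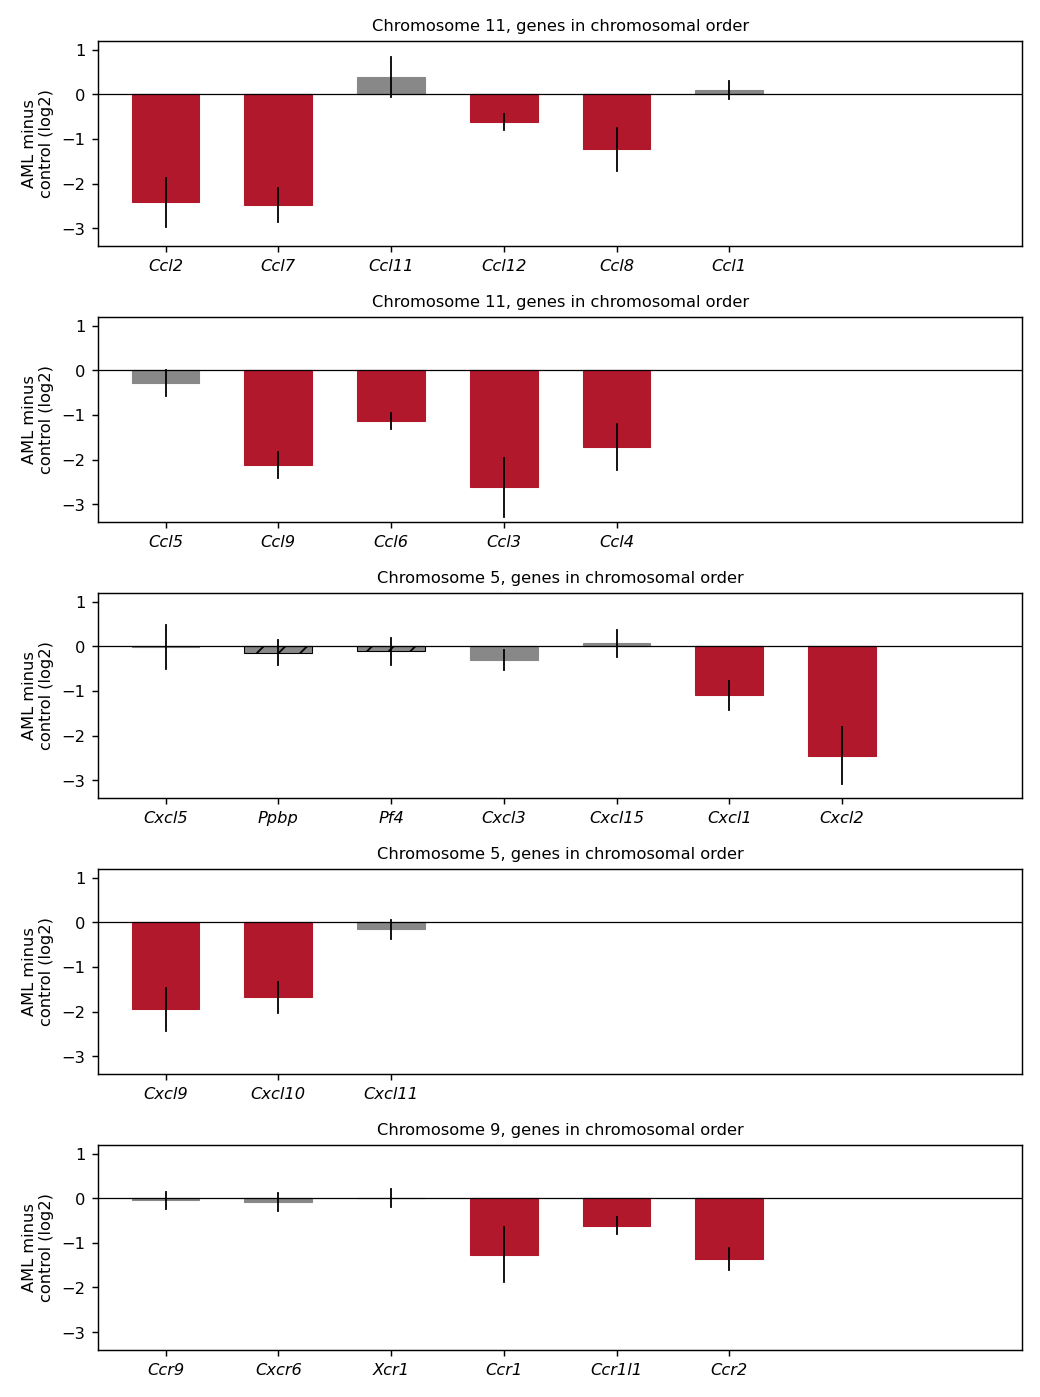
Difference between AML and control (log2, y axis) of chemokine genes in chromosomal order at 5 loci on chromosomes 11, 5 and 9, with 95% intervals as lines. Red bars passed the threshold and grey bars did not, and hatched bars are genes outside the symbol rule. Ppbp and Pf4 lie near 0 beside Cxcl1 (-1.10) and Cxcl2 (-2.45).

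Of the 17 receptor genes 5 fell: Ccr1, Ccr2, Cxcr2, Cx3cr1 and Ccr1l1. Ccr2, which draws monocytes out of the marrow, measured 5.57, 5.81 and 5.62 on AML arrays, against 7.01, 6.91 and 7.19 on control arrays. Both groups were tight, with AML arrays 1 and 3 at or below the floor, and the level was 2.58-fold lower in AML (95% interval -1.61 to -1.12, adjusted p = 8.4e-04). Cxcr2, the neutrophil receptor of Cxcl1 and Cxcl2, measured 6.32, 6.63 and 6.63 in AML, against 7.33, 7.54 and 7.56 in control. It was 1.93-fold lower (adjusted p = 0.00412). Cx3cr1, the fractalkine receptor of monocytes and macrophages, measured 6.69, 6.67 and 6.83 in AML, against 7.47, 7.44 and 7.52 in control. This 1.68-fold lower level exceeded the replicate spread (adjusted p = 0.00229), while its ligand gene Cx3cl1 stood at 5.40 ± 0.20 in AML and 5.42 ± 0.18 in control (adjusted p = 0.908).

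Ccr1, the shared receptor of Ccl3, Ccl6 and Ccl9, measured 6.497, 6.89 and 5.78 on AML arrays, against 7.53, 7.6 and 7.82 on control arrays. The AML values were widely scattered, with array 3 below the floor, and the level was 2.40-fold lower (95% interval -1.88 to -0.64, adjusted p = 0.0287). This call ended when AML array 1 was left out (adjusted p = 0.0627), and likewise for control array 1 (0.0541), 2 (0.0994) or 3 (0.111), within a range of 0.00573 to 0.111 over 15 alternatives. Ccr1l1, a gene adjoining Ccr1 and resembling it, stood at 3.29 ± 0.07 in AML and 3.90 ± 0.10 in control (adjusted p = 0.00676), in the dim range throughout.

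Cxcr4, the Cxcl12 receptor, measured 10.49, 10.35 and 9.47 on AML arrays, against 10.98, 11.11 and 11.04 on control arrays. All AML values were lower, with array 3 set apart, and the difference of -0.94 (95% interval -1.53 to -0.34) missed the threshold (adjusted p = 0.0592). With AML array 3 left out the difference was -0.62 and passed (adjusted p = 0.00852), and over 15 alternatives the adjusted p ran from 0.00852 to 0.178. The other 11 receptors differed by between -0.29 and +0.20 with a smallest adjusted p of 0.159, and 10 of them stood at or below the floor on all AML arrays. The exception was Ccr7, which guides cells to lymph nodes, at 6.87 ± 0.22 in AML and 7.15 ± 0.10 in control (adjusted p = 0.163).

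**Figure D4:**
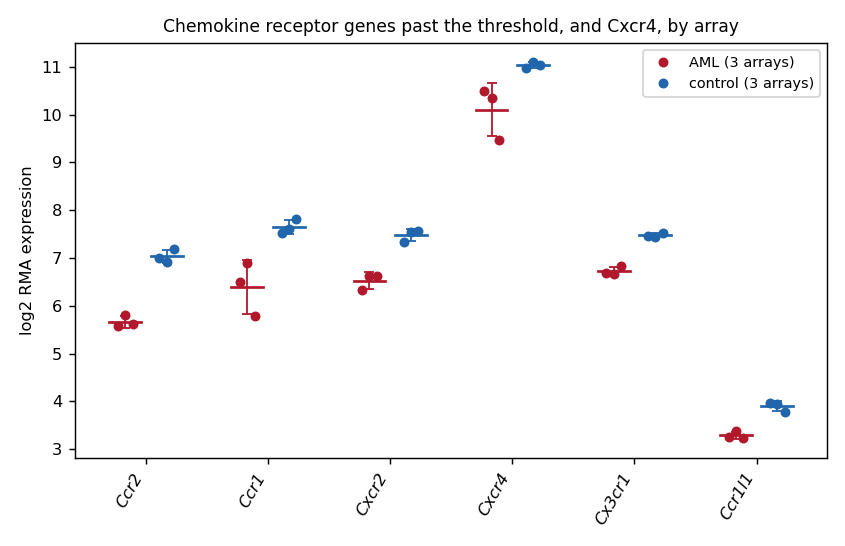
Log2 expression (y axis) of the 5 receptor genes past the threshold and of Cxcr4, AML left in red and control right in blue. Points are arrays, horizontal bars means and error bars SD (n = 3). AML arrays lie below control arrays in each of these genes, and AML array 3 is the lowest point of Ccr1 (5.78) and Cxcr4 (9.47).

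Set by receptor, and among genes of the symbol rule alone, calls were shared by ligand and receptor in some pairs and not in others. Ccr2 fell with Ccl2, Ccl7 and Ccl12, and Ccr1 with Ccl3, Ccl6, Ccl7 and Ccl9, while its ligand Ccl5 did not pass. Cxcr2 fell with Cxcl1 and Cxcl2, while Cxcl3 and Cxcl5 did not pass. Outside the symbol rule, Mif, which binds Cxcr2 and Cxcr4, was 1.72-fold higher in AML. Ppbp, also outside it, did not pass (adjusted p = 0.424). Elsewhere 1 partner fell without the other passing: Cxcl12 without Cxcr4 (adjusted p = 0.0592), Cxcl16 without Cxcr6, Ccl8 without Ccr8 (difference +0.20, adjusted p = 0.443, in the dim range), and Cx3cr1 without Cx3cl1. For Cxcl9 and Cxcl10 the receptor gene Cxcr3 was in the dim range on all AML arrays (difference -0.05, adjusted p = 0.799).

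Markers of other leukocytes were examined by list. Of 9 monocyte markers 7 fell and 0 rose, and their median level ranged from 6.07 to 6.62 on AML arrays and from 7.69 to 7.94 on control arrays. Of 12 macrophage markers 9 fell (list medians 6.82 to 7.38 in AML and 8.00 to 8.14 in control), and of 11 neutrophil markers 8 fell (9.48 to 10.06 in AML and 10.43 to 10.73 in control). No marker of these lists was at or below the floor on all control arrays. Markers of these lists that did not pass were F13a1 and Ly6c2 (monocyte), Vcam1, Cd5l and Marco (macrophage), and Mpo, Mmp9 and Elane (neutrophil). Ly6c2, an antigen of inflammatory monocytes, stood at 12.27 ± 0.30 in AML and 11.95 ± 0.10 in control (adjusted p = 0.187). Elane, the neutrophil elastase gene of early granulocytes, stood at 10.96 ± 0.11 in AML and 10.62 ± 0.17 in control, without overlap (adjusted p = 0.0889). Of 8 B and plasma cell markers 5 fell, of 9 dendritic cell markers 3, of 9 basophil and mast cell markers 4, and of 5 eosinophil markers 2. Of 12 T and NK cell markers 1 fell and 1 rose, with a median difference of +0.08, and 10 had means at or below the cutoff of 5.51. Their part in the chemokine differences was not tested, and in such bulk samples fewer cells of a type and less RNA per cell cannot be told apart.

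**Figure D5:**
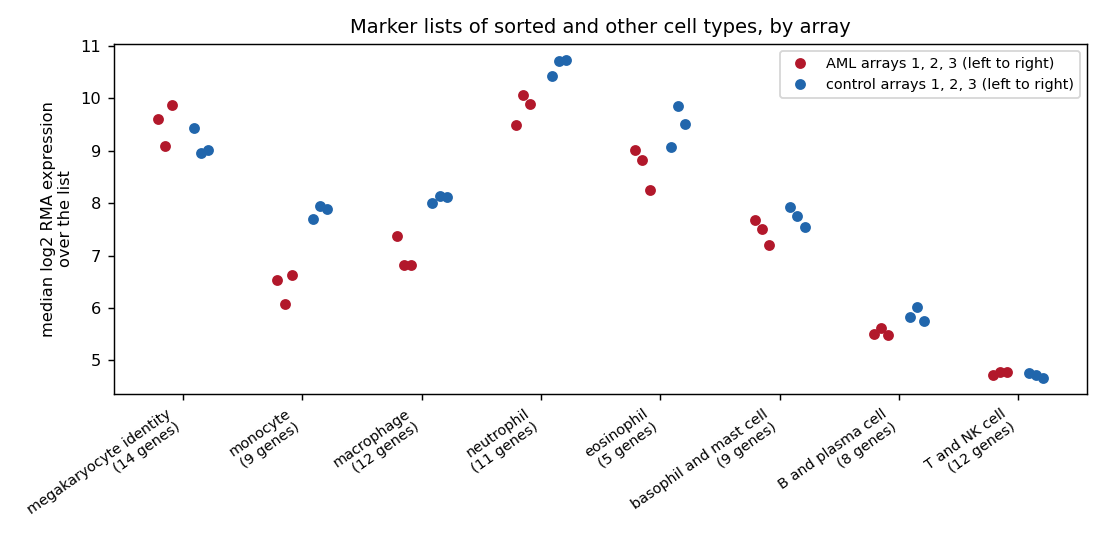
Median log2 expression (y axis) of marker lists of the sorted and of other cell types on each array, AML left in red and control right in blue, arrays 1, 2 and 3 from left to right. Monocyte, macrophage, neutrophil, eosinophil, and B and plasma cell lists lie lower on all AML arrays. The megakaryocyte, basophil and mast cell, and T and NK cell lists overlap between groups.

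Genes that carry or end the receptor signal were examined from lists of known components. For these lists the base is the 6.25% of all genes that fell and the 4.49% that rose. Among genes with means above 5.51, tested alone, it is 15.2% and 7.96%. Of 14 measured genes of desensitisation 4 fell (28.6%) and 0 rose. Rgs1, a GTPase activator that dampens chemokine signalling in leukocytes, measured 6.73, 6.91 and 6.54 on AML arrays, against 8.996, 9.09 and 9.48 on control arrays. The gap was far wider than either group's spread, a 5.51-fold lower level in AML (adjusted p = 4.5e-04). Rgs2, of the same family, stood at 8.58 ± 0.38 in AML and 10.08 ± 0.06 in control, 2.84-fold lower (adjusted p = 0.00388). Grk3, a kinase that phosphorylates active receptors, fell at least 1.22-fold, to 5.54 ± 0.06 in AML against 6.15 ± 0.05 in control (adjusted p = 0.00366). Rgs18, the family member abundant in megakaryocytes and platelets, stood at 10.55 ± 0.10 in AML and 10.47 ± 0.24 in control (adjusted p = 0.668).

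Of 21 measured G protein and effector genes 8 fell and 0 rose. Fgr, a Src-family kinase of myeloid cells, stood at 7.00 ± 0.19 in AML and 8.20 ± 0.13 in control, 2.30-fold lower (adjusted p = 0.00199). Gng2, a G protein gamma subunit, was 1.54-fold lower (adjusted p = 0.00507). Prex1, an exchange factor for Rac, was 1.57-fold lower (adjusted p = 0.0124). The call of Prex1 ended on leaving out control array 2 or 3 (adjusted p = 0.0641 and 0.0586, range over 15 alternatives 0.00318 to 0.0642). The count of lower effector genes dropped to 4 on leaving out AML array 2, to 3 on leaving out control array 2, and to 2 on leaving out control array 3.

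Of 8 measured relatives outside the symbol rule, 3 fell and 1 rose. Ccrl2, a receptor-like protein that presents chemerin, stood at 4.56 ± 0.11 in AML, not above the floor, and 5.81 ± 0.03 in control (adjusted p = 4.8e-04). Gpr35, a G protein-coupled receptor, fell at least 1.55-fold (adjusted p = 0.00529). Rarres2, the chemerin gene, differed by -0.35 (adjusted p = 0.0429), a call that was lost on leaving out any single array except AML array 3 (adjusted p from 0.0719 to 0.143, range over 14 alternatives 0.00988 to 0.143). Mif, a cytokine that binds Cd74, Cxcr2 and Cxcr4, measured 10.34, 10.29 and 10.41 on AML arrays, against 9.52, 9.63 and 9.53 on control arrays. The groups did not overlap and the level was 1.72-fold higher in AML (adjusted p = 0.00168).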

How the data were processed

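Total RNA of sorted megakaryocytes was labelled with biotin and hybridised to Affymetrix whole-transcript arrays, per the labels' protocols. The authors deposited log2 values made with RMA, which corrects background, normalizes by quantiles and summarises probes, per the submitters' processing notes; version and genome build are not given in the sources used here. Of 72688 rows, 30604 carried 1 symbol in the platform table, 2146 several and 39938 none. Symbols were updated through a RefSeq table of GRCm38.p6, and the brightest row was kept for each of 30063 genes. Rows with an old and a new symbol (Ackr2, Ackr3) name no gene here.

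Deposited values were tested with limma (3.58.1, R 4.3.3; lmFit and eBayes, two-sided, Benjamini-Hochberg over all genes, threshold 0.05), without a filter. Lower bounds set AML values at no less than each array's floor. The fit was tested on simulated data. Loci join genes whose starts lie within 600 kb. Gene names followed a rule: all chemokine genes past the threshold, the 10 brightest, Cxcl12, Cxcr4, the ligands of receptors so named, and up to 3 genes per direction and pathway list; others were chosen after their values were seen. Genes and lists were chosen with earlier results of these data known. Promoters of 39 of the 53 genes were matched by symbol. Alternatives were the replicate block, a variance trend, array weights, 3 normalizations, 2 filters, the mean of rows, a 2-fold minimum and leaving out each array. Figures used Python 3.11.15 with matplotlib 3.10.9.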

Additional observations from a re-analysis of the deposited data

How the results depend on the processing

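Of the 19 lower chemokine genes, 17 kept their call and direction under each alternative that tested them other than the 2-fold minimum, and Ccl8 and Ccr1 did not. The lower count ran from 17 to 20 when an array was left out (ligands 13 to 14, receptors 4 to 6). It was 17 among genes with means above 5.51, a filter that leaves out 27 of the 53, and 21 with array weights. Higher genes numbered 0 to 1 when an array was left out (Ccr8 without AML array 3, Cxcl17 without control array 1) and 3 with array weights, all of them ligands (Ccl19, its pseudogene Ccl19-ps1 and Cxcl17). With a 2-fold minimum 14 chemokine genes were lower, 2 of them receptors, and Cxcl12, Ccl12, Cxcr2, Cx3cr1 and Ccr1l1 lost their calls.

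Same-numbered arrays did not deviate together (correlations of -0.36, 0.14 and -0.29 over genes), so that the numbers were not taken as pairs. The largest correlation across groups was 0.43, between AML array 3 and control array 1. With the replicate number as a block 17 chemokine genes were lower, and Ccl8 (adjusted p = 0.0519), Ccr1 (0.0757), Rarres2 (0.095), Prex1 (0.0642) and Ctsg (0.0843) lost their calls. Over all genes the block left 861 lower and 206 higher, against 1880 and 1350 without it, and in the pathway lists 2 lower effectors, 3 lower modifiers and 0 higher modifiers.

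Over all genes array weights gave 3014 lower and 4839 higher, a 2-fold minimum 447 and 115, and median centring 2712 and 505. Leaving out an array gave 782 to 1967 lower and 185 to 1639 higher. Cxcr4 passed with array weights (adjusted p = 0.0156), median centring (0.0472), either filter on dim genes (0.0361 and 0.0329) and without AML array 3.

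In the pathway lists, a 2-fold minimum left 1 lower effector, 2 lower genes of desensitisation and 2 lower and 0 higher modifiers, and Mif no longer passed (0 higher). With an array left out 2 to 7 effectors and 2 to 4 modifiers were lower and 0 to 1 modifiers higher. Array weights gave 1 higher effector and 3 higher modifiers, and quantile normalization or cyclic loess 2 higher modifiers. Among genes with means above 5.51, 1 gene outside the symbol rule was lower.

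Differences near 0 turned sign for Cxcl5 (0.025 with array weights, and between -0.15 and 0.22 with an array left out) and for Cx3cl1 (between -0.11 and 0.091 with an array left out). Of 589 single-gene values under the alternatives other than the 2-fold minimum, 556 kept call and direction, 21 lost and 6 gained a call and 6 turned. The causes were not tested. RMA assumes equal distributions, which hides any change common to most genes, and values near the floor limit what can be said of dim genes.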

Other observations

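Enzymes and carriers that modify chemokines held changes in both directions. Of 15 measured genes 5 fell (33.3%) and 1 rose, against 6.25% and 4.49% of all genes. Among genes with means above 5.51, tested alone, 15.2% fell and 7.96% rose. Mmp8, the neutrophil collagenase that trims CXC ligands, measured 6.76, 6.98 and 7.68 on AML arrays, against 9.11, 9.47 and 9.57 on control arrays, a 4.74-fold lower level in AML (adjusted p = 0.00278). Sdc4, a heparan sulphate proteoglycan that can bind chemokines, stood at 5.81 ± 0.34 in AML, with arrays 2 and 3 at or below the floor, and 7.30 ± 0.12 in control (adjusted p = 0.00346). Dpp4, the peptidase that inactivates Cxcl12, differed by -0.59 in the dim range (adjusted p = 0.0107), a call that was lost without control array 3 (adjusted p = 0.0517, range over 13 alternatives 0.00231 to 0.0517). Ctsg, the cathepsin G gene of early granulocytes, was 1.93-fold higher in AML, at 8.995 ± 0.23 against 8.05 ± 0.34 in control (adjusted p = 0.0251). That call was lost without AML array 1 (adjusted p = 0.0682), AML array 2 (0.0778) or control array 2 (0.0915), within a range of 0.00343 to 0.0915 over 15 alternatives. The count of lower genes was 3 without AML array 2 or control array 2 and 2 without control array 3.

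The AML arrays differed among themselves in how low the chemokine genes stood. Among the 19 lower genes the SD was larger in AML than in control in 12, with medians of 0.22 in AML and 0.13 in control. AML array 3 was the lowest of its group in 9 of the 19 genes, array 2 in 6 and array 1 in 4. The same array had the highest median over the dim receptor family (3.87, against 3.56 to 3.58 on the other AML arrays) and the highest over megakaryocyte markers (9.87, against 9.08 and 9.61).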
